A study of Homo sapiens with 16 samples.

Results

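The genes described here are 10 markers of the luminal epithelial cells of the prostate. They comprise the lineage transcription factors FOXA1, GATA2, HOXB13 and GRHL2, the adhesion molecules CDH1 and EPCAM, the keratins KRT8 and KRT18, and the secreted proteins ACP3 and MSMB. They and the wider lists below were chosen by name, with earlier results of these data known. Each symbol was matched to its Ensembl identifier in a deposited table of raw read counts that holds 62754 genes. All 10 passed the filter on low counts and were tested among 18549 genes. The counts come from RNA sequencing of LNCaP, an androgen-sensitive line from a human prostate cancer. The 4 groups, of 4 libraries each, were p53 KO GCN2iB, p53 KO Vehicle, WT GCN2iB and WT Vehicle. The p53 KO cells were made with CRISPR, and the labels do not say whether they are a clone or a pool. GCN2iB was given at 5 µM and the Vehicle was DMSO, each for 48 h, after 350000 cells had been plated in each well. GCN2iB inhibits GCN2, the kinase that answers amino acid shortage by phosphorylating eIF2, and the study asked how its inhibition and the loss of p53 combine. Whether replicates came from separate cultures is not stated, so the tests are against a spread between libraries that may be technical.

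Luminal cells are the secretory cells that line the prostate glands, above a layer of basal cells. FOXA1 opens chromatin for the androgen receptor, and GATA2 and HOXB13 bind with them at many prostate enhancers, while GRHL2 maintains epithelial genes such as CDH1. Adhesion molecules, the keratin filaments made of KRT8 with KRT18, and secreted proteins of the seminal fluid such as ACP3 and MSMB are read as the differentiated products of this lineage.

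Total counts ranged from 17418072 to 39915685 per library. Levels are given in CPM, read counts normalised to library totals that were scaled by TMM, as mean ± SD of 4 libraries (n = 4 per group). Changes are log2 ratios with their standard error (SE), and a gene is called where its adjusted p from the quasi-likelihood test of edgeR, over all tested genes, is under 0.05. CDKN1A, a direct target of p53, had 38.5 to 51.7 CPM in p53 KO GCN2iB libraries and 35.4 to 43.1 CPM in p53 KO Vehicle libraries, against 375 to 501 CPM in WT GCN2iB libraries and 247 to 298 CPM in WT Vehicle libraries. ATF4, the transcription factor induced downstream of GCN2, had 279 to 292 CPM in p53 KO GCN2iB libraries and 457 to 535 CPM in p53 KO Vehicle libraries. It had 199 to 226 CPM in WT GCN2iB libraries and 442 to 538 CPM in WT Vehicle libraries. Among the GCN2iB libraries, replicate 4 of each genotype stood apart in CDKN1A, and in p53 KO cells also over all genes. Over all genes, p53 KO GCN2iB replicate 4 differed from the other 3 libraries of its group by a mean chi-square per gene of 33.3 to 45.1, where those 3 differed among themselves by 3.98 to 4.51 and pairs within the other groups by 3.63 to 38.0. It had 51.7 CPM of CDKN1A, where the other 3 had 38.5 to 41.5 CPM. WT GCN2iB replicate 4 had 375 CPM of CDKN1A, where the other 3 libraries had 483 to 501 CPM, but over all genes it was close to replicate 3, with a mean chi-square of 5. In that group replicate 1 differed from the others by 9.44 to 21.0. Replicates 1 and 4 differed in the Vehicle groups too, by 30.0 in WT cells and 38.0 in p53 KO cells. p53 KO Vehicle replicate 4 had 43.1 CPM of CDKN1A, where the others had 35.4 to 36.1 CPM. Levels centred on their group mean correlated at 0.539 to 0.617 between replicate 4 libraries of WT Vehicle, p53 KO Vehicle and p53 KO GCN2iB. Called changes of luminal genes that involve a GCN2iB replicate 4 library are also given without it. So are counts of most wider lists, while single genes of those lists are given with all libraries only. All 10 luminal genes were detected in every library. TP63 and KRT5, which define basal cells, had at most 0.0478 and 0.0634 CPM in any library, and CHGA, which defines neuroendocrine cells, had at most 0.253 CPM.

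Levels of different genes can be compared only per length, and the order depended on the length used. Per kilobase of all annotated exons joined, HOXB13 was the most abundant of the 10 genes in each of the 4 groups, with 118 ± 10.1 CPM per kilobase in p53 KO GCN2iB, 117 ± 9.96 in p53 KO Vehicle, 148 ± 3.31 in WT GCN2iB and 151 ± 12.5 in WT Vehicle. Per kilobase of the principal transcript, KRT8 came first instead, with 325 ± 21.5, 299 ± 25.5, 316 ± 11.5 and 315 ± 29 CPM per kilobase in the same groups, because its joined exons span 6881 bases and its principal transcript 2126 bases. FOXA1 ranked 2 or 3 of the 10 by joined exons and 2 to 4 by principal transcript. KRT18 ranked 5 or 6 by joined exons, but 2 by principal transcript in 3 of the 4 groups. By either length CDH1 and GATA2 ranked 4 to 6, EPCAM and GRHL2 ranked 7 or 8, and the secreted ACP3 and MSMB came last. Per kilobase of joined exons, FOXA1 at 94.2 ± 6.46 and KRT8 at 100.3 ± 6.66 in p53 KO GCN2iB differed by less than their spread, and so did CDH1 at 79.2 ± 6.02 and GATA2 at 78.8 ± 8.22, and GRHL2 at 25 ± 2.04 and EPCAM at 24.2 ± 1.24. The order of the secreted pair depended on genotype. Per kilobase of joined exons MSMB stood at 12.7 ± 2.49 in p53 KO GCN2iB and 9.91 ± 0.956 in p53 KO Vehicle, where ACP3 stood at 5.63 ± 0.229 and 6.22 ± 0.222. In WT cells ACP3 was the higher of the pair, with 7.46 ± 0.289 in WT GCN2iB and 10.2 ± 0.703 in WT Vehicle, where MSMB had 5.68 ± 1.29 and 3.78 ± 0.627.

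**Figure D1:**
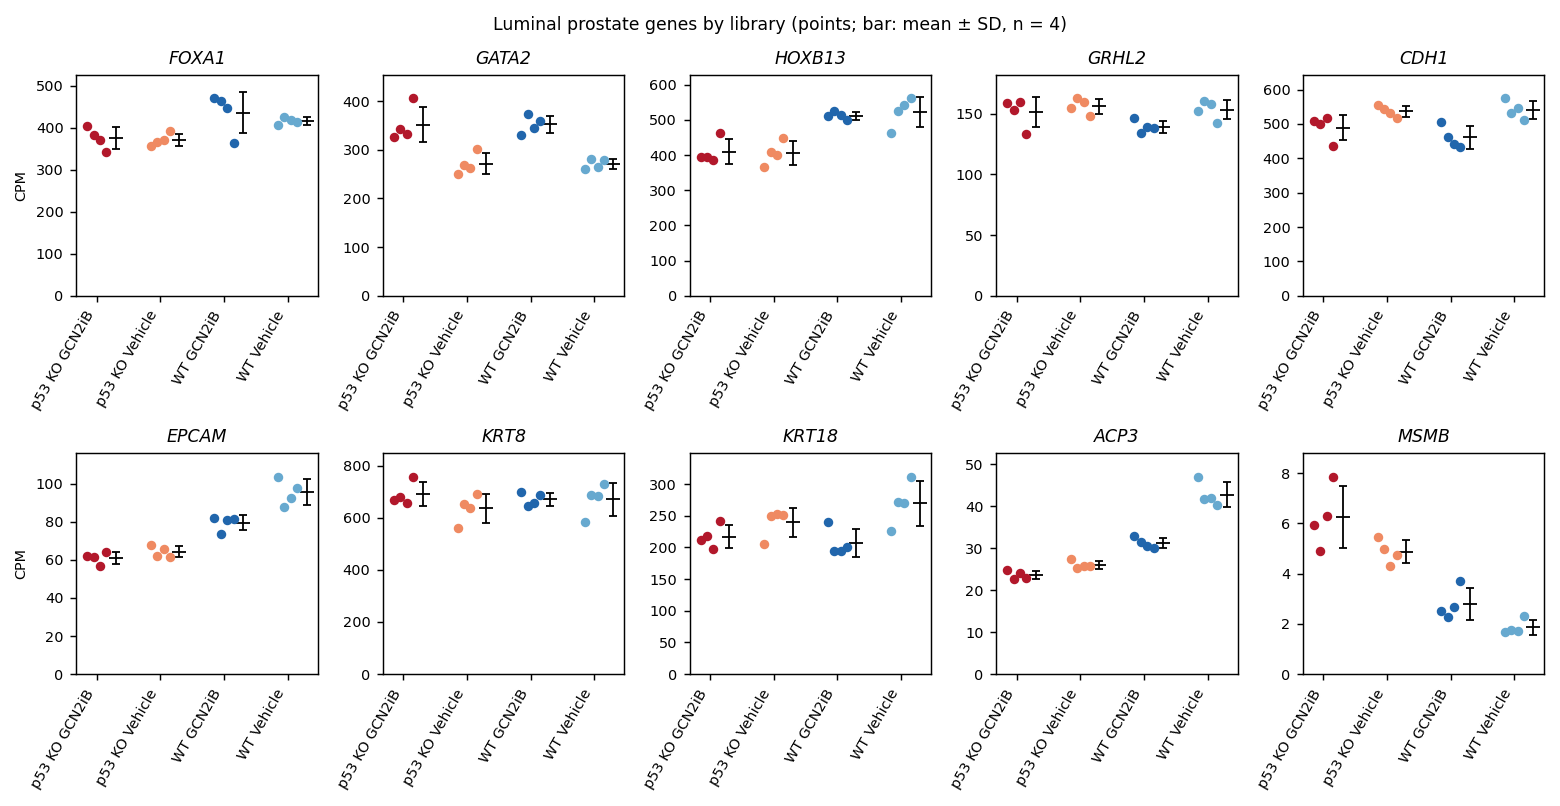
CPM of each of the 10 luminal genes in each library (points), by group, with mean ± SD of 4 libraries beside them. GATA2 lies higher in both GCN2iB groups than in their Vehicle groups, and EPCAM, HOXB13 and ACP3 lie lower and MSMB higher in p53 KO than in WT.

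Under GCN2iB, GATA2 rose in both genotypes, and in WT cells 5 other luminal genes passed the test as well. In bulk RNA a change in the share of expressing cells and a change in RNA per cell cannot be told apart. In p53 KO cells 1 of the 10 genes was called, GATA2, which rose. Of all tested genes 20.1% were called in that comparison, 11.4% higher and 8.71% lower. The count of 1 depended on the setting. With a term for replicate number in the model it was 3, with CDH1 called lower and MSMB called higher. It was 3 with library totals as the only scaling, where CDH1 and ACP3 were called lower, and 2 with genes of a mean of at least 50 counts, where ACP3 was. It was 5 with GC and length trends removed, where EPCAM, KRT18 and ACP3 were called lower and KRT8 higher, and 2 without p53 KO GCN2iB replicate 2, where MSMB was called higher. It was 1 without p53 KO GCN2iB replicate 4. In WT cells 6 of the 10 were called, with GATA2 and MSMB higher and CDH1, EPCAM, KRT18 and ACP3 lower, where 25.2% of all tested genes were called, 11.6% higher and 13.6% lower. Without WT GCN2iB replicate 4 the count in WT cells was 4, as CDH1 and MSMB were no longer called. In that fit 1848 of all tested genes were called higher and 1785 lower in WT cells. The counts in p53 KO and WT cells were not tested against each other. The median change of the 10 genes on the log2 scale was -0.02 in p53 KO cells and -0.08 in WT cells, where the median of all tested genes was -0.01 and -0.03. Between genotypes, HOXB13, EPCAM and ACP3 were lower and MSMB higher in p53 KO cells than in WT cells, under Vehicle and under GCN2iB. These were the 4 genes called under Vehicle, where 21.7% of all tested genes were called, 9.63% higher and 12.1% lower. Under GCN2iB FOXA1 was called lower too, which made 5 of the 10, where 23.9% of all tested genes were called, 12.7% higher and 11.2% lower. Without p53 KO GCN2iB replicate 4 the count under GCN2iB was again 5, with GRHL2 called higher and FOXA1 not called. Of all tested genes 2459 were then called higher and 2398 lower. The median of the 10 genes was -0.12 under Vehicle and 0.02 under GCN2iB, and that of all tested genes 0.01 and 0.03. Libraries of the groups compared did not overlap for 2 of the 10 genes with GCN2iB in p53 KO cells, where they did not for 21.7% of all tested genes, for 4 with GCN2iB in WT cells (26.0% of all tested genes), for 5 in p53 KO against WT under Vehicle (22.7%) and for 4 under GCN2iB (25.1%). The 4 comparisons share libraries, so their counts are not independent of each other. Whether more of all tested genes were called higher or lower depended on the setting in each of them. With library totals the split turned in 2 of them. It became 1401 higher and 2672 lower for GCN2iB in p53 KO cells, against 2119 higher and 1615 lower with TMM, and 2467 higher and 1593 lower for p53 KO against WT under Vehicle, against 1787 higher and 2238 lower with TMM. With DESeq2 size factors it turned in the other 2, to 2341 higher and 2283 lower for GCN2iB in WT cells, against 2153 higher and 2524 lower with TMM, and to 2114 higher and 2277 lower for p53 KO against WT under GCN2iB, against 2356 higher and 2085 lower with TMM. With genes of a mean of at least 50 counts it turned in all 4.

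**Figure D2:**
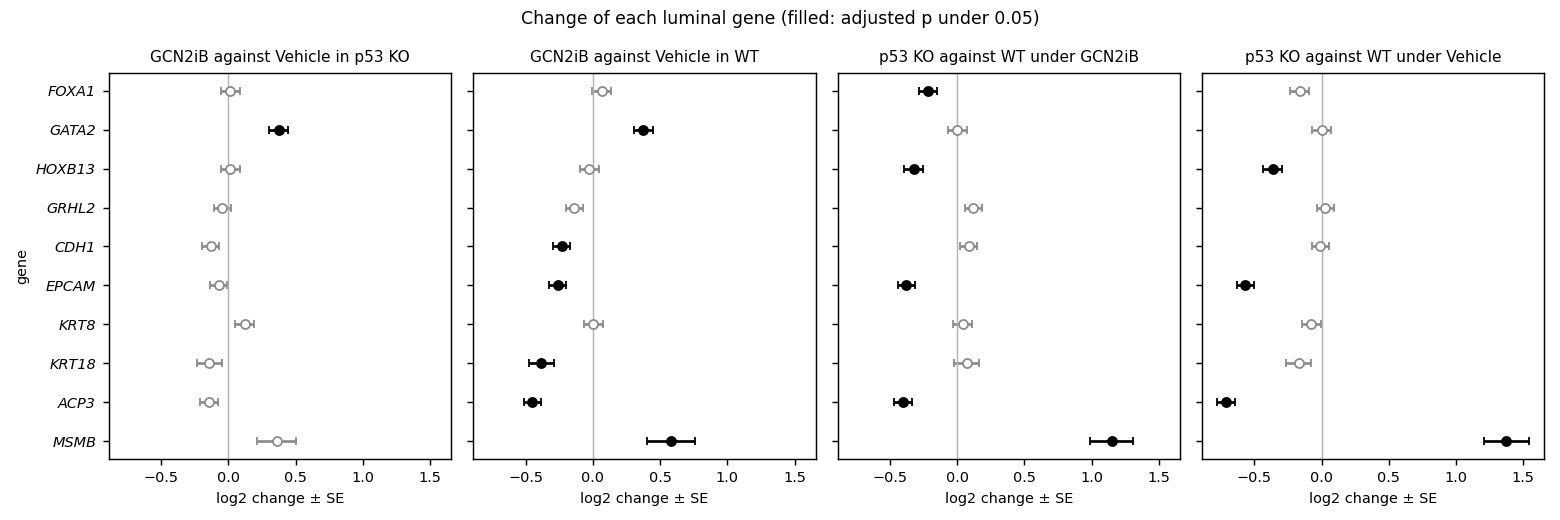
Log2 change ± SE of each luminal gene in the 4 comparisons, with filled points where the adjusted p is under 0.05. GATA2 is the only filled point for GCN2iB in p53 KO cells, and the MSMB point at 1.37 for p53 KO against WT under Vehicle is the largest change shown.

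Among the lineage transcription factors GATA2, a zinc finger protein that binds GATA motifs, was the only one of the 4 called under GCN2iB. The gene lies at chr3:128479427-128493185 on the minus strand (GRCh38, GENCODE 29). It had 327, 342, 331 and 406 CPM in p53 KO GCN2iB libraries, against 251, 269, 263 and 302 CPM in p53 KO Vehicle libraries. In WT cells it had 331, 373, 345 and 359 CPM with GCN2iB, against 260, 281, 264 and 279 CPM with Vehicle. Each GCN2iB library lay above each Vehicle library of its genotype. The change was 0.37 ± 0.07 (SE, 1.3-fold, adjusted p = 0.000574) in p53 KO cells and 0.38 ± 0.07 (1.3-fold, adjusted p = 0.000428) in WT cells, and 0.38 in WT cells without WT GCN2iB replicate 4 (adjusted p = 0.00133). In p53 KO cells it was 0.30 without p53 KO GCN2iB replicate 4 (adjusted p = 0.00142), the library with the highest GATA2 level. Both responses had nearly the same size: their difference was 0.00 ± 0.10 on the log2 scale, with a 95% interval from -0.20 to 0.19. The genotypes gave no call either, with 0.00 ± 0.07 for p53 KO against WT under Vehicle, where the interval ran from -0.14 to 0.14.

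Of the 10 genes, 4 had an entry in the RefSeq promoter table (GRCh38.p14), with 5 windows, of which 2 belong to GATA2. The upstream window of GATA2, the luminal gene called under GCN2iB in both genotypes, and that of ACP3, the luminal gene with the largest fall, are shown as the members on which the results turn. Each line holds the 250 bases before the RefSeq start, 5′ to 3′ on the strand of the gene, and capitals mark each CG dinucleotide. The GATA2 window is chr3:128493202-128493451 on the minus strand and the ACP3 window chr3:132317157-132317406 on the plus strand.
GATA2: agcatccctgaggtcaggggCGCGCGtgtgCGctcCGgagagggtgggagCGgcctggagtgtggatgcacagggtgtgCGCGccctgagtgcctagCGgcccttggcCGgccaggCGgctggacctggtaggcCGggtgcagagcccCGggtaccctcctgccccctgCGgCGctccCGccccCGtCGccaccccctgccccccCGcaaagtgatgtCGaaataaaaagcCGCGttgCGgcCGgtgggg
ACP3: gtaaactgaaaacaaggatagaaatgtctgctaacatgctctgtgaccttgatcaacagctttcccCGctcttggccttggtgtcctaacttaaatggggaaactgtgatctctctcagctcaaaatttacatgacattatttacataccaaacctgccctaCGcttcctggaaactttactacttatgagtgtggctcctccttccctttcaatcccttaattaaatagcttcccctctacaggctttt
The printed GATA2 window held 24 CG and 72.8% G and C bases, and the ACP3 window 2 CG and 42% G and C bases. The other GATA2 window, chr3:128488531-128488780, held 18 CG and 71.2% G and C bases. The ACP3 window reaches past the GENCODE 29 start of that gene, at 132317367. The median over 35116 windows was 11 CG, with quartiles of 3 and 23, and 58% G and C bases. Short motifs of 4 factors were searched on both strands of the 5 windows, which belong to FOXA1, GATA2, KRT8 and ACP3, and no window held any of them. The FOXA motif TGTTTAC occurs in 2.98% of all windows. The GATA motif AGATAA occurs in 9.17% of them. The androgen receptor motif AGAACA occurs in 12.4% of them. The HOXB13 motif CCAATAAA occurs in 0.863% of them.

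HOXB13, a homeobox factor of the prostate, differed by genotype, with GCN2iB changes near 0. It lies at chr17:48724763-48729178 on the minus strand. The libraries had 395, 395, 387 and 462 CPM in p53 KO GCN2iB and 366, 408, 401 and 450 CPM in p53 KO Vehicle, against 511, 527, 514 and 498 CPM in WT GCN2iB and 462, 525, 542 and 562 CPM in WT Vehicle. Under either treatment each p53 KO library lay below each WT library. HOXB13 fell by 0.36 on the log2 scale in p53 KO against WT under Vehicle (SE 0.07, 1.29-fold, adjusted p = 0.000563) and by 0.32 under GCN2iB (SE 0.07, 1.25-fold, adjusted p = 0.0018). The change under GCN2iB was -0.36 without WT GCN2iB replicate 4 (adjusted p = 0.002) and -0.39 without p53 KO GCN2iB replicate 4 (adjusted p = 0.000131). The GCN2iB change was 0.01 ± 0.07 in p53 KO cells and -0.03 ± 0.07 in WT cells.

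FOXA1, at chr14:37589984-37596059 on the minus strand, had lower means in p53 KO cells, and its call was unstable. It had 404, 382, 372 and 342 CPM in p53 KO GCN2iB and 356, 367, 371 and 391 CPM in p53 KO Vehicle, against 470, 464, 446 and 364 CPM in WT GCN2iB and 406, 426, 419 and 413 CPM in WT Vehicle. Under Vehicle the genotypes did not overlap, and under GCN2iB they did, through WT replicate 4. FOXA1 was called lower in p53 KO than in WT under GCN2iB (-0.22 ± 0.07, 1.16-fold, adjusted p = 0.0264), and not under Vehicle (-0.16 ± 0.07, adjusted p = 0.0986). Under Vehicle it was called with only the compared groups in the fit (-0.16, adjusted p = 0.0449) and without both GCN2iB replicate 4 libraries (-0.17, adjusted p = 0.0173). Without WT GCN2iB replicate 4 the change under GCN2iB was -0.32 (adjusted p = 0.000859). The call under GCN2iB was lost without WT GCN2iB replicate 1 (adjusted p = 0.0655), 2 (0.0706) or 3 (0.0513), without p53 KO GCN2iB replicate 4 (0.0635), and with library totals (0.0549).

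GRHL2, a grainyhead factor of epithelial cells at chr8:101492432-101669726, was called in none of the 6 comparisons. It averaged 151 ± 12.4 CPM in p53 KO GCN2iB, 156 ± 6.18 CPM in p53 KO Vehicle, 139 ± 4.92 CPM in WT GCN2iB and 153 ± 8.15 CPM in WT Vehicle, and the groups compared overlapped. Its change under GCN2iB was -0.05 ± 0.06 (adjusted p = 0.653) in p53 KO cells and -0.14 ± 0.06 (adjusted p = 0.112) in WT cells. In p53 KO against WT under GCN2iB it was 0.12 ± 0.06 (adjusted p = 0.183), and without p53 KO GCN2iB replicate 4 it was called, at 0.17 (adjusted p = 0.0281).

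Of 18 other lineage transcription factors 14 were tested. With GCN2iB 4 rose and 1 fell in p53 KO cells (11.4% of all tested genes higher and 8.71% lower). In WT cells 3 rose and 3 fell (11.6% and 13.6%), or 3 rose and 2 fell without WT GCN2iB replicate 4. GRHL1 and OVOL2, epithelial factors related to or acting with GRHL2, rose in both genotypes, GRHL1 by 0.35 ± 0.09 in p53 KO cells (adjusted p = 0.00891) and 0.39 ± 0.09 in WT cells (adjusted p = 0.00364). In p53 KO against WT cells 2 rose and 3 fell under Vehicle (9.63% of all tested genes higher and 12.1% lower). Likewise 2 rose and 3 fell under GCN2iB (12.7% and 11.2%). Without p53 KO GCN2iB replicate 4 the counts were 4 higher and 3 lower with GCN2iB in p53 KO cells, and 4 higher and 4 lower between genotypes under GCN2iB. Among those called under Vehicle KLF5 had the largest rise, at 0.80 ± 0.12 (adjusted p = 3.86e-05), and OVOL1 the largest fall, with -0.81 ± 0.14 (adjusted p = 9.66e-05). The median change of the 14 genes lay between -0.14 and 0.03 in these 4 comparisons.

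EPCAM and CDH1, the adhesion molecules, both fell with GCN2iB in WT cells, and EPCAM also differed by genotype. EPCAM, a membrane glycoprotein of epithelial cells encoded at chr2:47345158-47387601, had 61.9, 61.6, 56.7 and 64.1 CPM in p53 KO GCN2iB and 67.9, 61.8, 65.8 and 61.6 CPM in p53 KO Vehicle. It had 82.2, 73.7, 80.7 and 81.6 CPM in WT GCN2iB and 104, 87.7, 92.6 and 97.7 CPM in WT Vehicle. Each p53 KO library lay below each WT library, and in WT cells each GCN2iB library lay below each Vehicle library. EPCAM fell by 0.57 on the log2 scale in p53 KO against WT under Vehicle (SE 0.06, 1.48-fold, adjusted p = 5.19e-07) and by 0.38 under GCN2iB (SE 0.06, 1.3-fold, adjusted p = 0.000122). With GCN2iB it fell by 0.26 in WT cells (SE 0.06, 1.2-fold, adjusted p = 0.00416), and its change in p53 KO cells was -0.07 ± 0.06 (adjusted p = 0.469). Without WT GCN2iB replicate 4 the change in WT cells was -0.26 (adjusted p = 0.0125) and that between genotypes under GCN2iB -0.39 (adjusted p = 0.000282), and without p53 KO GCN2iB replicate 4 the change between genotypes was -0.40 (adjusted p = 7.34e-05). Between the genotypes the GCN2iB responses differed by 0.19 ± 0.09, which did not pass the test (adjusted p = 0.525).

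CDH1 encodes E-cadherin, the adhesion receptor of adherens junctions, at chr16:68737225-68835548. It had 508, 499, 516 and 435 CPM in p53 KO GCN2iB, against 555, 542, 532 and 516 CPM in p53 KO Vehicle. In WT cells it had 506, 462, 441 and 434 CPM with GCN2iB, against 575, 531, 546 and 512 CPM with Vehicle. The GCN2iB and Vehicle libraries of WT cells did not overlap, while those of p53 KO cells overlapped at 516 CPM. CDH1 fell by 0.23 with GCN2iB in WT cells (SE 0.06, 1.17-fold, adjusted p = 0.00954), and its change in p53 KO cells was -0.13 ± 0.06 (adjusted p = 0.148). The call in WT cells was lost without WT GCN2iB replicate 3 (adjusted p = 0.0594) or 4 (-0.19, adjusted p = 0.0635). Replicate 4 was the lowest library of each group. With a term for replicate number in the model, the change was -0.23 in WT cells (adjusted p = 0.000372) and -0.13 in p53 KO cells (adjusted p = 0.0332). Both responses differed by 0.10 ± 0.09 (adjusted p = 0.778). Between genotypes the change was -0.01 ± 0.06 under Vehicle (adjusted p = 0.924) and 0.09 ± 0.06 under GCN2iB (adjusted p = 0.347). Without p53 KO GCN2iB replicate 4, the lowest library of its group, the change with GCN2iB in p53 KO cells was -0.08 (adjusted p = 0.408).

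The 25 E-cadherin partners and junction genes, all tested, were called more often between genotypes than with GCN2iB, a contrast in counts that was not tested. In p53 KO against WT cells 1 rose and 11 fell under Vehicle, with a median of -0.19 (9.63% of all tested genes higher and 12.1% lower). Under GCN2iB 3 rose and 9 fell, with a median of -0.19 (12.7% and 11.2%). JUP, the junction protein plakoglobin, which binds E-cadherin, fell by 0.41 under Vehicle (SE 0.08, adjusted p = 0.000395), and MARVELD2, a protein of tight junctions, by 0.48 (SE 0.07, adjusted p = 1.06e-05). With GCN2iB 1 rose and 2 fell in p53 KO cells, with a median of 0.02 (11.4% of all tested genes higher and 8.71% lower). In WT cells 0 rose and 5 fell, with a median of -0.04 (11.6% and 13.6%). Without WT GCN2iB replicate 4, 0 rose and 3 fell in WT cells, and without p53 KO GCN2iB replicate 4, 0 rose and 2 fell in p53 KO cells, with a median of -0.02. Between genotypes under GCN2iB, 1 rose and 9 fell without WT GCN2iB replicate 4, and 4 rose and 11 fell without p53 KO GCN2iB replicate 4. ESRP1, a splicing regulator of epithelial transcripts, fell in both, by 0.35 in p53 KO cells (SE 0.06, adjusted p = 0.000382) and by 0.43 in WT cells (SE 0.06, adjusted p = 2.95e-05). CTNNB1, the β-catenin that binds E-cadherin, was called in none of these 4 comparisons, and CTNNA1, the α-catenin, was called higher in p53 KO than in WT under GCN2iB at 0.17 ± 0.05 (adjusted p = 0.0278).

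Of the luminal keratins, which pair in the same filament, KRT18 was called with GCN2iB in WT cells and KRT8 in neither genotype. Their changes were not tested against each other. KRT18 (chr12:52948871-52952901, plus strand) had 212, 218, 197 and 242 CPM in p53 KO GCN2iB, against 206, 250, 253 and 251 CPM in p53 KO Vehicle. In WT cells it had 239, 194, 195 and 200.3 CPM with GCN2iB, against 226, 272, 270 and 312 CPM with Vehicle. Within each genotype the treatments overlapped, in WT cells through GCN2iB replicate 1 and Vehicle replicate 1. KRT18 fell by 0.38 with GCN2iB in WT cells (SE 0.09, 1.3-fold, adjusted p = 0.0037, and 0.02 without WT GCN2iB replicate 4), and its change in p53 KO cells was -0.14 ± 0.09 (adjusted p = 0.295). The responses differed by 0.24 ± 0.13, which did not pass the test (adjusted p = 0.589). KRT8 (chr12:52897187-52949954, minus strand) was called in none of the 6 comparisons. It averaged 690 ± 45.8 CPM in p53 KO GCN2iB and 635 ± 54.3 CPM in p53 KO Vehicle, and 671 ± 24.4 CPM in WT GCN2iB and 670 ± 61.7 CPM in WT Vehicle. Its change with GCN2iB was 0.12 ± 0.07 (adjusted p = 0.254) in p53 KO cells and 0.00 ± 0.07 (adjusted p = 0.988) in WT cells.

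The ratio of KRT8 to KRT18 counts within a library, a value chosen after the levels were seen and given without a test, separated the treatments. It was 3.15, 3.12, 3.34 and 3.13 in p53 KO GCN2iB, against 2.73, 2.61, 2.51 and 2.76 in p53 KO Vehicle. In WT cells it was 2.91, 3.34, 3.37 and 3.42 with GCN2iB, against 2.59, 2.52, 2.53 and 2.34 with Vehicle. Each GCN2iB library lay above each Vehicle library in either genotype. KRT8 and KRT18 share 525 exon bases on opposite strands and the strand setting of the counting is not given in the sources used here, so reads from that stretch cannot be assigned with certainty. Both have many processed copies in the genome. The 51 copies of KRT8 in the table held 2.09% to 3.13% of the counts of gene and copies together, and the 68 copies of KRT18 held 0.573% to 1.45%. Of 5 other simple keratins 3 were tested, and with GCN2iB KRT19 fell in WT cells, by 0.28 (SE 0.09, adjusted p = 0.0289), while without WT GCN2iB replicate 4 none of the 3 was called there. In p53 KO against WT under Vehicle KRT80 rose by 0.83 ± 0.24 (adjusted p = 0.0163) and KRT19 fell by 0.30 (SE 0.09, adjusted p = 0.0218).

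**Figure D3:**
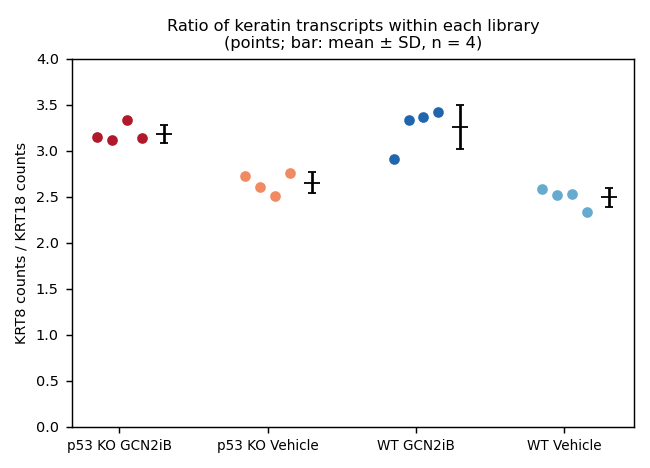
Ratio of KRT8 to KRT18 counts in each library (points), by group, with mean ± SD of 4 libraries beside them. The GCN2iB means of 3.18 in p53 KO and 3.26 in WT lie above the Vehicle means of 2.65 and 2.49, and the lowest GCN2iB library, at 2.91, lies above the highest Vehicle library, at 2.76.

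The secreted proteins moved in opposite directions between genotypes. ACP3, prostatic acid phosphatase, is encoded at chr3:132317367-132368298 on the plus strand, and its window is printed with that of GATA2. It had 24.8, 22.7, 24 and 23.0 CPM in p53 KO GCN2iB and 27.4, 25.2, 25.9 and 25.8 CPM in p53 KO Vehicle, against 32.8, 31.6, 30.5 and 30.1 CPM in WT GCN2iB and 47.1, 41.8, 41.9 and 40.4 CPM in WT Vehicle. The 4 groups did not overlap at all, with p53 KO GCN2iB lowest and WT Vehicle highest. ACP3 fell by 0.71 on the log2 scale in p53 KO against WT under Vehicle (SE 0.06, 1.64-fold, adjusted p = 1.36e-08) and by 0.40 under GCN2iB (SE 0.06, 1.32-fold, adjusted p = 6.37e-05). With GCN2iB it fell by 0.45 in WT cells (SE 0.06, 1.37-fold, adjusted p = 1.96e-05), and its change in p53 KO cells, -0.14 ± 0.06, was not called (adjusted p = 0.124) although the groups did not overlap there. Without WT GCN2iB replicate 4 the change in WT cells was -0.42 (adjusted p = 0.000252) and that between genotypes under GCN2iB -0.45 (adjusted p = 6.77e-05). Without p53 KO GCN2iB replicate 4 it was -0.39 between genotypes (adjusted p = 0.000166). The GCN2iB responses differed by 0.31 ± 0.09, with an unadjusted p of 0.00259, the smallest of the 10 genes, and this did not pass the adjustment (adjusted p = 0.324).

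MSMB, the β-microseminoprotein of seminal fluid at chr10:46033307-46046269 on the minus strand, was the least abundant gene in CPM, with at least 33 counts in every library. It had 5.92, 4.91, 6.28 and 7.86 CPM in p53 KO GCN2iB and 5.45, 4.98, 4.32 and 4.75 CPM in p53 KO Vehicle, against 2.51, 2.29, 2.67 and 3.72 CPM in WT GCN2iB and 1.67, 1.74, 1.71 and 2.32 CPM in WT Vehicle. Each p53 KO library lay above each WT library. MSMB rose by 1.37 ± 0.17 in p53 KO against WT under Vehicle (2.59-fold, adjusted p = 1.7e-06) and by 1.15 ± 0.16 under GCN2iB (2.21-fold, adjusted p = 1e-05), and there by 1.3 without WT GCN2iB replicate 4 (adjusted p = 2.45e-06) and by 1.01 without p53 KO GCN2iB replicate 4 (adjusted p = 2.97e-05). With GCN2iB it rose by 0.58 ± 0.18 in WT cells (1.5-fold, adjusted p = 0.0184), where the groups overlapped, and its change in p53 KO cells was 0.36 ± 0.15 (adjusted p = 0.0941), or 0.22 without p53 KO GCN2iB replicate 4 (adjusted p = 0.358). The call in WT cells was lost without WT GCN2iB replicate 4, where the change was 0.42 (adjusted p = 0.0949). Replicate 4 was also the highest library of WT Vehicle. With a term for replicate number in the model, the change was 0.58 in WT cells (adjusted p = 0.00383) and 0.33 in p53 KO cells (adjusted p = 0.0414). The responses differed by -0.23 ± 0.23 (adjusted p = 0.809).

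Of 18 other secreted and surface proteins of the prostate 15 were tested, and those called with GCN2iB all fell. In p53 KO cells 8 fell, or 7 without p53 KO GCN2iB replicate 4, and in WT cells 10 fell, also without WT GCN2iB replicate 4, with medians of -0.22 and -0.22. Of all tested genes 8.71% were called lower in p53 KO cells and 13.6% in WT cells. SPON2, a secreted matrix protein and the most abundant gene of the list in CPM, was not called, with changes of 0.09 ± 0.09 in p53 KO cells (adjusted p = 0.531) and 0.12 ± 0.09 in WT cells (adjusted p = 0.382). KLK3, the prostate-specific antigen, fell by 0.19 in p53 KO cells (SE 0.06, adjusted p = 0.0284), with 1360.4 ± 115 CPM with GCN2iB and 1555 ± 72.3 CPM with Vehicle, and by 0.22 in WT cells (SE 0.06, adjusted p = 0.0101). SLC45A3, a transporter also known as prostein, fell by 0.34 in p53 KO cells (SE 0.06, adjusted p = 0.000694) and by 0.43 in WT cells (SE 0.07, adjusted p = 5.3e-05). In p53 KO against WT cells the list split, with 3 higher and 7 lower under Vehicle (9.63% of all tested genes higher and 12.1% lower). Under GCN2iB 4 were higher and 2 lower (12.7% and 11.2%), or 4 higher and 4 lower without p53 KO GCN2iB replicate 4. Under Vehicle the kallikreins KLK2 and KLK4 rose by 0.66 ± 0.07 (adjusted p = 9.31e-08) and 0.51 ± 0.07 (adjusted p = 4.7e-06), and TMPRSS2, an androgen-regulated serine protease of the membrane, fell by 0.51 (SE 0.06, adjusted p = 1.55e-06). PLA2G2A, a secreted phospholipase, fell by 1.96 (SE 0.15, adjusted p = 7.19e-10), with 1.13 ± 0.118 CPM in p53 KO Vehicle and 4.44 ± 0.69 CPM in WT Vehicle.

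**Figure D4:**
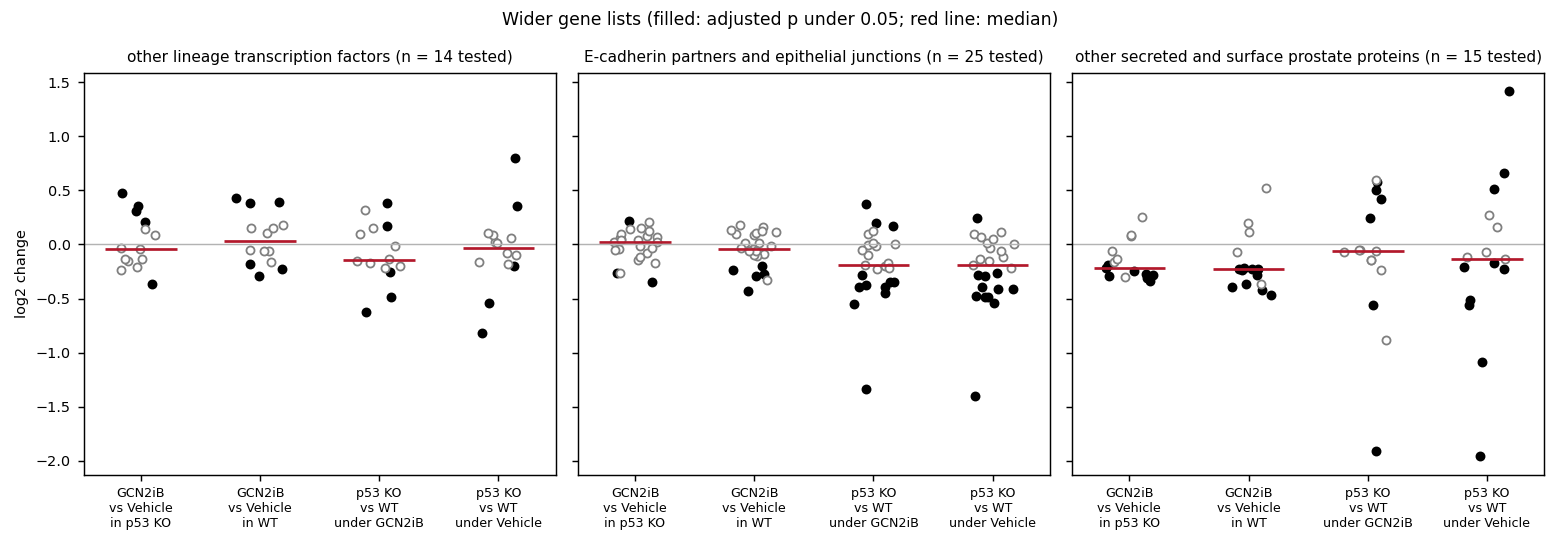
Log2 change of each tested gene of 3 wider lists in the 4 comparisons, filled where the adjusted p is under 0.05, with the median of each list as a red line. With GCN2iB the called secreted and surface genes lie below 0, and the junction genes have medians of -0.19 in both comparisons of p53 KO with WT.

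For the joint change, p53 KO GCN2iB against WT Vehicle, 6 of the 10 luminal genes were called, 2 higher and 4 lower, where 37.0% of all tested genes were called, 18.5% higher and 18.5% lower. The libraries did not overlap for 5 of the 10, ACP3, EPCAM, FOXA1, GATA2 and MSMB, as for 32.0% of all tested genes. MSMB rose by 1.73 ± 0.17 (3.32-fold, adjusted p = 2.99e-08) and GATA2 by 0.38 ± 0.07 (1.3-fold, adjusted p = 0.000201). ACP3 fell by 0.85 (SE 0.06, 1.81-fold, adjusted p = 6.11e-10), EPCAM by 0.64 (SE 0.06, 1.56-fold, adjusted p = 5.06e-08), HOXB13 by 0.35 (SE 0.07, 1.28-fold, adjusted p = 0.00045) and KRT18 by 0.31 (SE 0.09, 1.24-fold, adjusted p = 0.00953). CDH1 (-0.14 ± 0.06, adjusted p = 0.0785) and FOXA1 (-0.15 ± 0.07, adjusted p = 0.0972) were not called. Without p53 KO GCN2iB replicate 4 the 6 genes were called too, with MSMB at 1.59 and GATA2 at 0.30. The difference between the GCN2iB responses of p53 KO and WT cells was called for 0 of the 10 genes by edgeR and 0 by DESeq2 or limma voom, and for 1 of all tested genes (0.00539%). Of the 10 genes, ACP3 and EPCAM had an unadjusted p under 0.05, at 0.00259 and 0.0479. A response called in WT cells and not in p53 KO cells, as for CDH1, EPCAM, KRT18, ACP3 and MSMB, was therefore not shown to differ between the genotypes.

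The group means of 3 luminal genes spanned over 0.5 on the log2 CPM scale, and the genes with the most similar pattern were found among 9572 tested genes with a mean of at least 10 CPM, by the root mean square difference of log2 CPM over 16 libraries, each gene centred on its own mean. For ACP3 they were F2R, the thrombin receptor, at 0.0752, TRAM1L1 at 0.086 and LPAR3, a receptor for lysophosphatidic acid, at 0.0889, where ACP3 itself varied by 0.330 about its mean. F2R averaged 9.35 CPM in p53 KO GCN2iB, 10.2 CPM in p53 KO Vehicle, 11.8 CPM in WT GCN2iB and 16.1 CPM in WT Vehicle. For EPCAM they were TNFAIP8 at 0.0646, TUSC3 at 0.0705 and FAM210B at 0.0724, where EPCAM varied by 0.265. For MSMB they were S100P, a calcium-binding protein, at 0.211, the metallothionein MT1F at 0.229 and DIO3, a deiodinase of thyroid hormones, at 0.237, where MSMB varied by 0.701. S100P averaged 32.3 CPM in p53 KO GCN2iB, 27.7 CPM in p53 KO Vehicle, 14.3 CPM in WT GCN2iB and 12.4 CPM in WT Vehicle. The differences were larger for MSMB, which also varied most of the 3 about its own mean.

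The summed level of the immune markers was low. That of the basal markers was mostly ITGA6, that of the neuroendocrine markers mostly ENO2, and that of the mesenchymal markers mostly FN1. Some of these genes moved with genotype beside the luminal genes. The 11 basal markers summed to 34.5 to 42.6 CPM in p53 KO GCN2iB libraries and 46.7 to 52.5 CPM in p53 KO Vehicle libraries, against 37.0 to 42.5 CPM in WT GCN2iB libraries and 48.3 to 57.1 CPM in WT Vehicle libraries. Of the 8 that were tested, 4 were higher and 3 lower in p53 KO than in WT under Vehicle (9.63% of all tested genes higher and 12.1% lower). Most of the sum was the integrin ITGA6, which fell with GCN2iB by 0.39 in p53 KO cells (SE 0.09, adjusted p = 0.00229) and by 0.54 in WT cells (SE 0.09, adjusted p = 8.41e-05). Of the 13 mesenchymal markers 9 were tested, and 2 were higher and 2 lower in p53 KO than in WT under Vehicle, beside the same shares of all tested genes. Under Vehicle VIM, vimentin, rose by 0.97 ± 0.11 (adjusted p = 9.71e-07) and SNAI2, a repressor of epithelial genes, by 1.24 ± 0.12 (adjusted p = 4.7e-08) in p53 KO against WT cells, and TWIST1 fell by 0.98 (SE 0.10, adjusted p = 2.01e-07). VIM averaged 8.21 ± 0.865 CPM in p53 KO GCN2iB and 8.5 ± 0.662 CPM in p53 KO Vehicle, against 4.08 ± 0.526 CPM in WT GCN2iB and 4.32 ± 0.548 CPM in WT Vehicle. The mesenchymal list summed to 468 to 735 CPM in p53 KO GCN2iB libraries and 659 to 835 CPM in p53 KO Vehicle libraries, against 526 to 587 CPM in WT GCN2iB libraries and 548 to 663 CPM in WT Vehicle libraries, and FN1, fibronectin, made up most of it. FN1 had 682, 614, 694 and 421 CPM in p53 KO GCN2iB and 754, 770, 787 and 606 CPM in p53 KO Vehicle, against 539, 516, 484 and 480 CPM in WT GCN2iB and 616, 601, 585 and 494 CPM in WT Vehicle. It was called in none of these 4 comparisons, with 0.35 ± 0.12 for p53 KO against WT under Vehicle (adjusted p = 0.0516). CDH2 and ZEB1, which also define mesenchymal states, stayed at or under 0.253 CPM in every library. Of 11 neuroendocrine markers 3 were tested, and ENO2, the most abundant, rose with GCN2iB by 0.45 ± 0.09 in p53 KO cells (adjusted p = 0.000894) and 0.29 ± 0.09 in WT cells (adjusted p = 0.0174). The neuroendocrine list summed to 29.8 to 35.8 CPM in p53 KO GCN2iB libraries and 23.2 to 27.6 CPM in p53 KO Vehicle libraries, against 32.0 to 37.2 CPM in WT GCN2iB libraries and 27.2 to 31.5 CPM in WT Vehicle libraries. Of the 9 immune and blood markers LYZ was tested, with 0.7 ± 0.299 CPM in p53 KO GCN2iB and 0.839 ± 0.419 CPM in p53 KO Vehicle, against 0.0681 ± 0.0981 CPM in WT GCN2iB and 0.0269 ± 0.0208 CPM in WT Vehicle. The immune list as a whole summed to at most 1.69 CPM in any library. The part of these markers in the luminal results was not tested.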

How the data were processed

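RNA from 16 LNCaP libraries, 4 per group, was sequenced in paired ends, per the labels' protocols. The authors deposited whole-number read counts by gene, with no normalization. The build GRCh38 and the tools HISAT2, Trim Galore, DESeq2 and featureCounts are listed in the submitters' processing notes. They give neither an annotation release nor a strand setting. Columns were matched to samples by group and replicate, with 0 left over. Of 62754 identifiers 42343 had a symbol and 58261 a GENCODE 29 position.

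In R 4.3.3 with edgeR 4.0.16, filterByExpr kept 18549 genes holding at least 99.906% of the counts of each library. Totals were scaled by TMM, and a robust quasi-likelihood model with 1 term per group was fitted to all 16 libraries. Its 6 contrasts were tested two-sided and adjusted by Benjamini-Hochberg over all tested genes (threshold 0.05), after a check on simulated counts. Processed values used Python 3.11.15 with pandas 2.3.3. Intervals are 95% normal intervals from the SE.

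All 10 luminal genes are named. Of each wider list (110 genes in all) up to 4 called genes per comparison with the smallest adjusted p could be named, with the most abundant gene of lists of other cell types, 3 similar genes per member, and CDKN1A and ATF4 as label checks. CTNNB1, CTNNA1, KLK3, TP63, KRT5, CHGA, CDH2 and ZEB1 are named as defining genes outside this rule, and SPON2 as the most abundant secreted gene, after its values were seen. The targeted transcript and some single genes of the wider lists are not reported here. Members and lists were chosen with earlier results of these data known. Alternatives were DESeq2 1.42.0 size factors and test, limma 3.58.1 voom, library totals, no count filter, a mean of at least 50 counts, replicate block, GC and length trends removed (5 spline degrees of freedom), compared groups alone, both GCN2iB replicate 4 libraries left out, and each library left out in turn. Counts of the wider lists without each GCN2iB replicate 4 library were added after seeing the data. No 2 replicates of a group agreed within sampling noise (lowest mean chi-square per gene 3.63).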

Additional observations from a re-analysis of the deposited data

Results flagged for a closer look

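In each of the 40 sets of 4 libraries (10 luminal genes in 4 groups) the gap between the most extreme library and its nearest neighbour was compared with the range by Dixon's test. Chance alone marks about 1 set in 20, and 4 were marked here. HOXB13 in p53 KO GCN2iB had 1 high library, replicate 4 at 461.91 CPM, where the other 3 had 387 to 395 CPM. KRT18 in p53 KO Vehicle had 1 low library, replicate 1 at 205.698 CPM, where the others had 250 to 253 CPM. KRT18 in WT GCN2iB had 1 high library, replicate 1 at 239.317 CPM, where the others had 194 to 200.3 CPM. MSMB in WT Vehicle had 1 high library, replicate 4 at 2.32191 CPM, where the others had 1.67 to 1.74 CPM.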

How the results depend on the processing

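Of the 396 recomputed values of the 22 called changes of luminal genes, 387 kept direction and call, 9 kept direction and lost the call (those of CDH1, MSMB and FOXA1 given in the report, and MSMB with GCN2iB in WT cells at 0.40 without both GCN2iB replicate 4 libraries), and 0 turned. Of 557 values of 29 changes not called, 40 turned in sign, the largest of them 0.0714, and 16 became called. Among the 16 was KRT18 in p53 KO against WT under Vehicle without WT Vehicle replicate 1 (-0.26, adjusted p = 0.0356). Left out of this tally were the joint changes not called. Also left out were the differences of responses of genes called with GCN2iB in both genotypes or in neither. The luminal count for GCN2iB in p53 KO cells was 1, against 3 with library totals, 2 with a mean of at least 50 counts, 5 with GC and length trends removed and 1 to 2 with each library left out. The count over all genes for the difference of responses was 1, against 2 with DESeq2 size factors, 4 with library totals, 47 with no count filter, 6 with a mean of at least 50 counts, 38 by DESeq2, 37 with trends removed, 6 without both replicate 4 libraries and 1 to 34 with each library left out (34 without WT GCN2iB replicate 1, 10 without p53 KO GCN2iB replicate 4). The other all-gene counts stayed within 1.5 times of the reported ones, and KRT8 and KRT18 levels with their processed copies summed moved by less than 1 SD. The labels give the replicate numbers no meaning. Of 24 same-number pairs 12 had a correlation of residuals above 0.1 (-0.0642 to 0.617), and 11 of 16 libraries correlated best with their own number. With a replicate block these counts were 3 and 61, with CDH1 (-0.13) and MSMB (0.33) called in p53 KO cells. GRHL2 with GCN2iB in WT cells (-0.14, adjusted p = 0.0365) and FOXA1 in p53 KO against WT under Vehicle (-0.16, adjusted p = 0.0414) were called as well, which made 7 and 5 of the 10. For the joint change 8 were called in place of 6, with CDH1 (-0.15, adjusted p = 0.014) and FOXA1 (-0.15, adjusted p = 0.0405) added. Over all genes the replicate block fit called 6139, 5203 and 8098 in these comparisons, where the main fit called 4677, 4025 and 6870. With the replicate block, p53 KO against WT under Vehicle was -0.00056 for GATA2.

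The tallied changes that turned were all near 0. For GCN2iB in p53 KO cells, FOXA1 was -0.054 with library totals, -0.015 with a mean of at least 50 counts, -0.00033 with trends removed and -0.027 to 0.057 with each library left out. HOXB13 was -0.059, -0.017 and -0.029 in the same settings, -0.0502 without both replicate 4 libraries and -0.0496 to 0.065 with each left out, and GRHL2 0.0092 without both and -0.075 to 0.0098. For GCN2iB in WT cells, KRT8 was -0.029 with library totals, -0.0091 without both and -0.048 to 0.061 with each left out, and HOXB13 -0.072 to 0.024. For p53 KO against WT under Vehicle, CDH1 was 0.046 with library totals, 0.025 with the count mean, 0.0012 with trends removed and -0.041 to 0.0093 with each left out, GATA2 -0.0027 with no filter, -0.00199 by voom and -0.061 to 0.033, and GRHL2 -0.0124 to 0.0445. Under GCN2iB, GATA2 was 0.015 with library totals, 0.071 with trends removed and -0.0776 to 0.012 with each left out, KRT18 -0.0022 without both, and KRT8 -0.0074 to 0.0496. The causes were not tested. Depth limits precision where counts are low, as for MSMB, with 33 counts in its lowest library, and the shallowest library held 17418072 counts.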
